A study of Mus musculus with 12 samples.

Results

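Glycolysis and glycogen metabolism were described in flow-sorted alveolar macrophages, which patrol the air side of the alveoli, through 37 genes chosen by gene symbol. All 37 were among the 55291 symbols of the deposited expression table. Of these members, 29 belong to glucose uptake, glycolysis and the handling of pyruvate and lactate, and 8 to glycogen synthesis and breakdown. The cells came from female C57BL/6NJ mice aged 8 to 11 weeks, with no genetic change named in the labels. The ozone group inhaled 0.8 ppm ozone, given in sessions of 4 h on each of 4 days in a row, and the comparison group received filtered air on the same schedule. Lungs were taken 3 days later. Each group held 6 mice, 1 library per mouse, and each of the 2 flow-sort batches held 3 mice per group.

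Glucose enters a cell through facilitative transporters and is trapped by hexokinase as glucose 6-phosphate, from which glycolysis runs to pyruvate and lactate. Its committed step is phosphofructokinase 1, whose strongest allosteric activator, fructose 2,6-bisphosphate, is made and removed by the PFKFB enzymes. Glucose 6-phosphate can instead be turned by phosphoglucomutase into glucose 1-phosphate and stored: UDP-glucose is formed, glycogenin starts a chain on itself, glycogen synthase lengthens it and the branching enzyme branches it. Glycogen phosphorylase releases glucose 1-phosphate again, and acid alpha-glucosidase degrades glycogen inside lysosomes. In macrophages a shift towards glycolysis is a known feature of inflammatory activation, and the transcription factor HIF-1 drives many of the glycolytic genes.

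Values are on the log2 scale of a variance-stabilizing transformation, and in every gene the 6 filtered-air mice average 0. A difference of 1 would be a doubling for a gene with many reads, and differences are compressed for genes with few reads. Because the level of a gene was not kept, isoforms could not be ranked by abundance. None of the members had a mouse at the lowest value that mice without reads share. Read totals are unknown, but the size of 1 read gave relative depths of 0.870 to 1.21 after ozone and 0.900 to 1.17 in filtered air. RNA integrity numbers were 9.2 to 9.7 and 8.9 to 9.7. The lowest belonged to filtered-air mouse 4, which was also the highest filtered-air mouse in 9 of 12 lists of markers of other cell types. All 14 alveolar macrophage markers had reads, among them Siglecf, Marco, Fabp4 and Pparg. Of these 14 markers, Car4 and Chil3 rose, by 0.32 and 0.25, and Krt79 fell by 0.35 (limma adjusted p = 0.0460, 0.0320 and 0.0177). The part of these changes in the results was not tested. In bulk libraries, fewer cells of a type and less RNA per cell cannot be told apart.

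Ozone changed few of these genes, and it changed them in opposite directions. In limma, 4 of the 37 members (10.8%) had an adjusted p under 0.05, against 4.25% of the 19633 genes tested. Gyg and Pgm1 on the glycogen side rose, where 2.41% of all genes were called higher. Pfkfb3 and Pfkp, both at the phosphofructokinase step of glycolysis, fell, where 1.84% of all genes were called lower. In 6 members the 6 ozone values did not overlap the 6 filtered-air values (Gyg, Pgm1, Hif1a, Gpi1, Pfkfb3 and Pfkp), against 3.53% of all genes. At an unadjusted p under 0.05 in limma there were 12 of the 37 members, against 3283 of all 19633 genes (16.7%). The 33 members that were not called had differences from -0.20 to 0.16, with adjusted p-values from 0.0845 to 0.996 in limma. Across the members 23 differences were positive and 14 negative, with a median of 0.039, while the median over all genes tested was -0.0033 and 48.0% of them were positive.

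**Figure D1:**
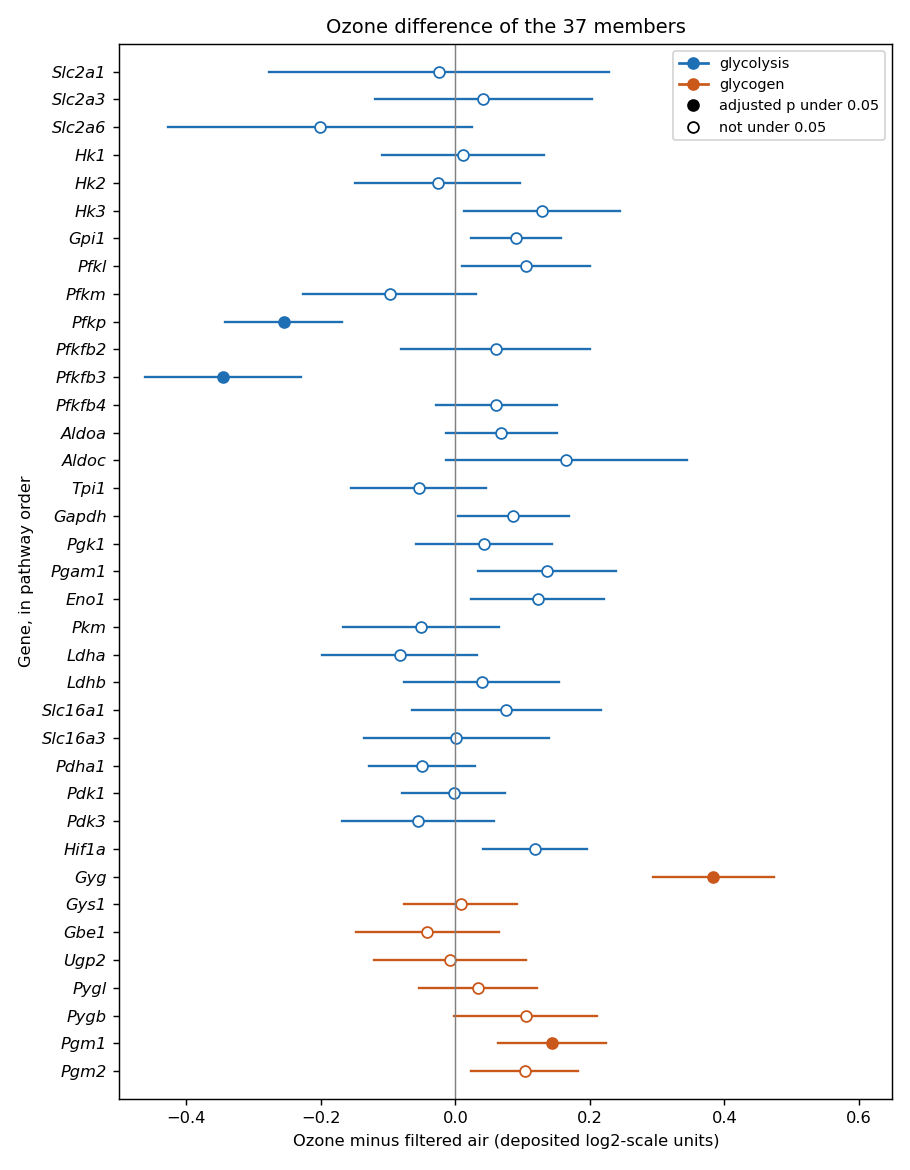
Ozone minus filtered air for each of the 37 members in pathway order, in deposited log2-scale units, as the limma difference with its 95% interval (6 mice per group). Filled points mark an adjusted p under 0.05; Gyg at 0.38 and Pfkfb3 at -0.35 lie farthest from 0, in opposite directions.

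The called members had the same direction in both flow-sort batches, but they were called on both batches together, so this is not a replication. With exposure and batch as an interaction in limma, 0 of all genes tested (0%) had an adjusted p under 0.05, with 510 at an unadjusted p under 0.05, and the lowest unadjusted p among the members was 0.0734, for Pfkl. The difference of Gyg was 0.35 in batch 1 and 0.41 in batch 2, that of Pfkfb3 was -0.35 and -0.34, that of Pfkp was -0.19 and -0.32, and that of Pgm1 was 0.17 and 0.12. With 3 mice per group, batch 1 alone gave 1 called member (Gyg) and batch 2 alone 0. Over all members, 30 of 37 had the same sign in both batches, and the share over all genes was not counted.

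The promoter stretches of the called members are shown with ACGTG and GCGTG, both forms of the core of the HIF-1 binding element. HIF-1 binding was not measured, and a part of HIF-1 in these differences was not tested. Promoter windows of 300 bases around the start were taken from RefSeq on GRCm38.p6, the assembly that corresponds to the mm10 build named in the submitters' processing notes, and 36 of the 37 members had one. Capitals mark ACGTG or GCGTG on either strand. The Pfkfb3 stretch ends before the first exon in its window, at a start inside the gene, and carries CACGTG, an E-box that contains ACGTG. A second Pfkfb3 window, at the upstream end of the gene, holds 1 further ACGTG. The Pfkp stretch holds GCGTG but no ACGTG. For Gyg and Pgm1 only the 30 bases around each ACGTG match are given; the Gyg window also holds 1 GCGTG outside the stretch shown.
Pfkfb3, chr2:11502102-11502340, minus strand: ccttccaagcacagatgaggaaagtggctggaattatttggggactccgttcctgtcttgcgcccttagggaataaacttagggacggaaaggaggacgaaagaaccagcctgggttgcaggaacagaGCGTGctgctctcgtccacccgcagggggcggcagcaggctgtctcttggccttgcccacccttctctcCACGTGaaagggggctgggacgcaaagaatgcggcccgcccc
Pfkp, chr13:6648778-6649021, minus strand: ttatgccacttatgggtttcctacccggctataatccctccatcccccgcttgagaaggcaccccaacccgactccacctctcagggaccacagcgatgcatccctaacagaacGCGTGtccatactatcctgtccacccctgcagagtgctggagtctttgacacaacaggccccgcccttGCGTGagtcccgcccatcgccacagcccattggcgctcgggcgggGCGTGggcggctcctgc
Gyg, chr3:20155091-20155120, minus strand: agcctgcgcggcCACGTGacggccgctata
Pgm1, chr4:99929231-99929260, plus strand: tctggaatgtatACGTGacactctagtcca
Pgm1, chr4:99929258-99929287, plus strand: ccaatcacagtaACGTGctgaactcttcgt

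ACGTG stood in a window of 24 of the 36 members (66.7%), against 27.6% of the 12675 tested genes with a window. GCGTG stood in 23 members (63.9% against 51.7%), CACGTG in 7 (19.4% against 10.9%) and the GC box GGGCGG in 28 (77.8% against 63.2%), all counted on both strands. The windows had a mean GC content of 60.6% in the members and 59.5% in the tested genes. The 24 members with ACGTG had a median ozone difference of 0.051, ranging from -0.35 to 0.38, and the 12 without it had a median of 0.0026, ranging from -0.26 to 0.12. Members with ACGTG included both the gene that rose most and the gene that fell most. The members without ACGTG include genes that hold GCGTG, such as Pfkp.

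At glucose uptake, none of the 3 transporters passed the test. Slc2a1 encodes GLUT1, the main transporter of activated macrophages, and its difference was -0.024 (95% interval -0.28 to 0.23). Its values ran from -0.24 to 0.27 after ozone and from -0.25 to 0.40 in filtered air, so the groups overlapped throughout. Slc2a3, which encodes GLUT3, differed by 0.041 (interval -0.12 to 0.20). Slc2a6, which encodes GLUT6, a transporter of intracellular vesicles, had values from -0.41 to 0.038 with a median of -0.21 after ozone, and from -0.20 to 0.45 with a median of -0.11 in filtered air. Its difference of -0.20 (limma adjusted p = 0.373) was -0.10 without filtered-air mouse 4, the highest mouse at 0.45.

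Of the 3 hexokinases and the isomerase 0 were called in limma and 2, Hk3 and Gpi1, had an unadjusted p under 0.05 (16.7% of all genes), with 3 positive differences and 1 negative. Hk3, the hexokinase typical of myeloid cells, ran from -0.042 to 0.26 after ozone and from -0.089 to 0.11 in filtered air, and 4 of 6 ozone mice lay above every filtered-air mouse. Its difference of 0.13 did not pass (interval 0.012 to 0.24, limma adjusted p = 0.241). The isoforms Hk1 and Hk2, the second being the inducible one, differed by 0.012 (interval -0.11 to 0.13) and -0.026 (interval -0.15 to 0.096). Gpi1 encodes the isomerase that leads from glucose 6-phosphate to fructose 6-phosphate. Its ozone values, from 0.064 to 0.13, all lay above the filtered-air values, from -0.022 to 0.059, yet the difference of 0.090 did not pass (SE 0.031, limma adjusted p = 0.140).

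The clearest glycolytic changes were at the phosphofructokinase step. Pfkfb3 encodes the PFKFB isoform whose kinase activity far exceeds its phosphatase activity and which raises fructose 2,6-bisphosphate. Its values ran from -0.43 to -0.25 with a median of -0.36 after ozone, and from -0.18 to 0.15 with a median of 0.028 in filtered air. All 6 ozone mice were below the lowest filtered-air mouse. Pfkfb3 fell by 0.35 (SE 0.054, limma adjusted p = 0.00293), with an SD of 0.070 after ozone and 0.11 in filtered air (n = 6 each). The call held in each of the 12 fits that left out 1 mouse, with adjusted p-values up to 0.00889.

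Its paralogs did not follow it. Pfkfb4 had values from -0.0090 to 0.13 after ozone and from -0.098 to 0.094 in filtered air, a difference of 0.061 (interval -0.028 to 0.15). Pfkfb2 differed by 0.060 (interval -0.080 to 0.20). Within each mouse, Pfkfb3 minus Pfkfb4 lay between -0.52 and -0.27 after ozone and between -0.11 and 0.079 in filtered air, and this difference of the relative values did not overlap between the groups.

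Phosphofructokinase 1 itself is a tetramer of liver, muscle and platelet type subunits. Pfkp, the platelet type, had values from -0.33 to -0.20 with a median of -0.24 after ozone, and from -0.12 to 0.069 with a median of 0.0066 in filtered air. The groups did not overlap. Pfkp fell by 0.26 (SE 0.041, limma adjusted p = 0.00318), and the call held without any 1 mouse, with adjusted p-values up to 0.0112. Pfkl, the liver type, had values from 0.020 to 0.25 after ozone and from -0.091 to 0.049 in filtered air, with 5 of 6 ozone mice above every filtered-air mouse, but its difference of 0.10 did not pass (interval 0.0092 to 0.20, limma adjusted p = 0.245). Pfkm, the muscle type, differed by -0.098 (interval -0.23 to 0.031). Pfkp minus Pfkl within each mouse ran from -0.48 to -0.29 after ozone and from -0.078 to 0.12 in filtered air, without overlap, whereas Pfkp minus Pfkm overlapped, with 2 of 6 ozone mice below every filtered-air mouse. These pairs were set side by side with their values known and were not tested.

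**Figure D2:**
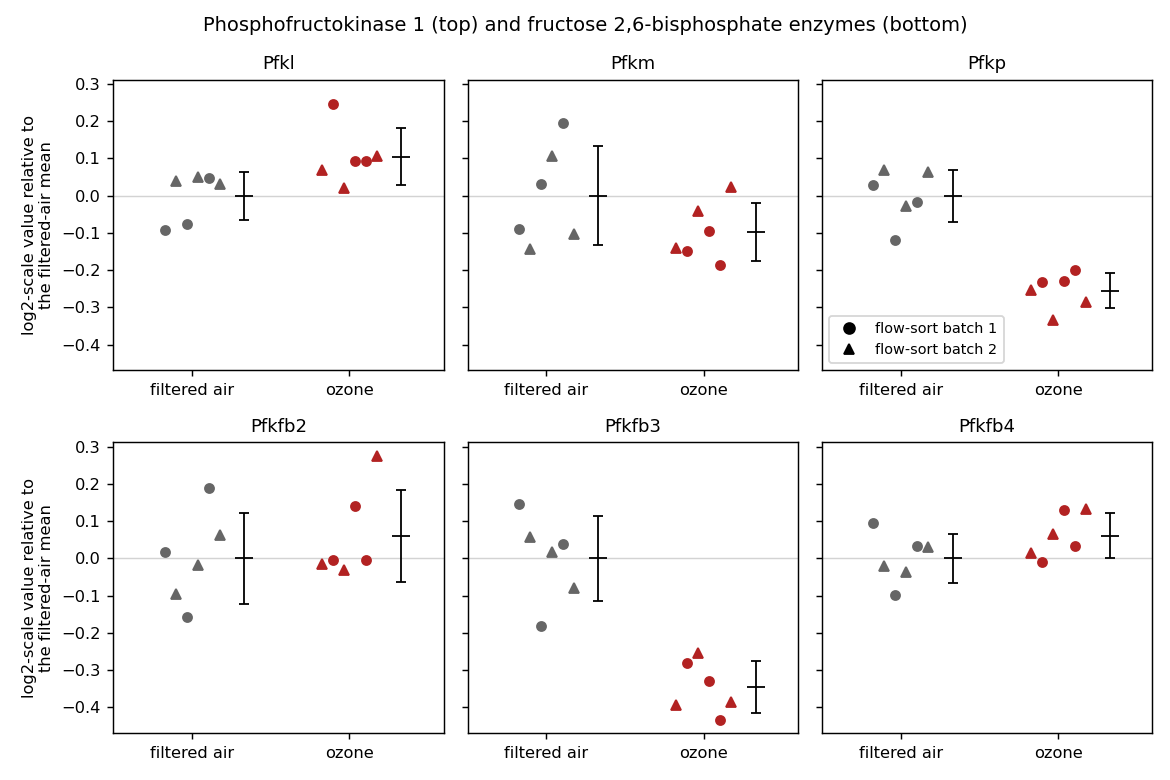
Value of each mouse for the phosphofructokinase 1 subunits (top) and the fructose 2,6-bisphosphate enzymes (bottom), in deposited log2-scale units relative to the filtered-air mean; circles and triangles are flow-sort batches 1 and 2, and the bars give the mean ± SD of 6 mice. Pfkp and Pfkfb3 are the panels in which every ozone mouse lies below every filtered-air mouse.

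From aldolase to pyruvate kinase 0 of 8 genes passed the test in limma, and 3 of them, Pgam1, Eno1 and Gapdh, had an unadjusted p under 0.05, which 16.7% of all genes had. Pgam1, phosphoglycerate mutase, had values from 0.030 to 0.26 with a median of 0.12 after ozone, and from -0.10 to 0.14 with a median of -0.0055 in filtered air. Its difference of 0.14 had an interval from 0.033 to 0.24 (limma adjusted p = 0.147). Eno1, enolase, differed by 0.12 (interval 0.023 to 0.22), and 5 of 6 ozone mice were above every filtered-air mouse. Gapdh differed by 0.086, Aldoa by 0.069 and Pgk1 by 0.043, while Tpi1 and Pkm differed by -0.054 and -0.051. Aldoc, a second aldolase, had values from 0.019 to 0.28 after ozone and from -0.16 to 0.38 in filtered air, where filtered-air mouse 4 was the highest. Its difference of 0.16 (limma adjusted p = 0.350) was 0.25 without that mouse and then passed the threshold (adjusted p = 0.0220). Several of these genes have near-identical processed copies in the mouse genome, and how their shared reads were assigned is not given in the sources used here; Eno1b, the copy of Eno1 that has its own row in the table, differed by 0.028.

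At the exits of glycolysis 0 of 7 genes passed, and 0 had an unadjusted p under 0.05 in limma, against 16.7% of all genes. Ldha, the lactate dehydrogenase subunit that favours lactate formation, had values from -0.19 to -0.018 with a median of -0.079 after ozone, and from -0.15 to 0.16 with a median of 0.018 in filtered air. Its difference was -0.083 (interval -0.20 to 0.032, limma adjusted p = 0.499), and -0.048 without filtered-air mouse 4. Ldhb differed by 0.039, and the lactate transporters Slc16a1 and Slc16a3, which encode MCT1 and MCT4, by 0.076 and 0.0015. Pdha1, the catalytic subunit through which pyruvate enters the mitochondrial cycle, differed by -0.050 (interval -0.13 to 0.029), with 3 of 6 ozone mice below every filtered-air mouse. The kinases that switch it off, Pdk1 and Pdk3, differed by -0.0025 and -0.056.

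Hif1a, the oxygen-regulated subunit of HIF-1, had values from 0.078 to 0.15 with a median of 0.13 after ozone, and from -0.070 to 0.067 with a median of 0.011 in filtered air. All 6 ozone mice were above the highest filtered-air mouse, but the difference of 0.12 missed the threshold (SE 0.036, limma adjusted p = 0.0845). HIF-1 is controlled mainly through the stability of this protein, which was not measured. Of the 8 other genes of the HIF pathway 0 were called, against 4.25% of all genes tested. Their median was -0.069, and 7 were negative, while 48.0% of all genes tested were positive. Arnt, the partner subunit, differed by -0.091, and the oxygen sensors Egln1 and Egln3 by -0.062 and -0.050. Epas1, which encodes HIF-2 alpha, differed by 0.15 with a wide interval from -0.16 to 0.46. Of 16 HIF targets outside the members 1 was called (6.25%), against the same 4.25%. Bnip3, a mitophagy receptor, fell by 0.23 (SE 0.047, limma adjusted p = 0.0139), with ozone values from -0.41 to -0.16 below filtered-air values from -0.067 to 0.065, a call that quantile normalization ended (adjusted p = 0.0685). Vegfa differed by -0.19 (limma adjusted p = 0.212) and Hilpda, a lipid droplet protein, by 0.25 (limma adjusted p = 0.118), neither called. The list had 7 positive and 9 negative differences, with a median of -0.0065. The part of HIF-1 in these differences was not tested.

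On the glycogen side Gyg stood out. It encodes glycogenin, the protein primer on which a glycogen particle is built, and lies at chr3:20122084-20155317 on the minus strand (GRCm38, GENCODE M21). Its values ran from 0.30 to 0.47 with a median of 0.40 after ozone, and from -0.062 to 0.091 with a median of -0.022 in filtered air. Every ozone mouse was above every filtered-air mouse, by a gap wider than the spread within either group. Gyg rose by 0.38 (SE 0.042, limma adjusted p = 0.000380), to 0.38 ± 0.066 (SD, n = 6) against 0 ± 0.063 (SD, n = 6). It was the largest difference of any member and held without any 1 mouse, between 0.37 and 0.40.

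The other genes of glycogen synthesis did not move with it. Gys1, the glycogen synthase of non-hepatic tissues, had values from -0.053 to 0.062 after ozone and from -0.069 to 0.10 in filtered air, a difference of 0.0078 (interval -0.076 to 0.092). Gbe1, the branching enzyme, differed by -0.042 (interval -0.15 to 0.065), and Ugp2, which makes UDP-glucose, by -0.0081 (interval -0.12 to 0.11). Within each mouse Gyg minus Gys1 was 0.25 to 0.47 after ozone and -0.12 to 0.13 in filtered air, without overlap. For Gbe1 and Ugp2 the ozone mice were spread on both sides of the filtered-air range, with 1 above and 2 below it in each gene.

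Breakdown genes were flat or slightly positive. Pygb, the brain type phosphorylase, had values from 0.063 to 0.16 with a median of 0.091 after ozone, and from -0.14 to 0.11 with a median of 0.028 in filtered air, a difference of 0.10 (interval -0.0019 to 0.21, limma adjusted p = 0.309). Pygl, the liver type that leukocytes also use, differed by 0.034 (interval -0.054 to 0.12).

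Phosphoglucomutase serves both directions. Pgm1 (chr4:99929414-99987294, plus strand) had values from 0.099 to 0.20 with a median of 0.14 after ozone, and from -0.084 to 0.093 with a median of -4.4e-05 in filtered air. The groups did not overlap, although the lowest ozone mouse lay close above filtered-air mouse 4. Pgm1 rose by 0.14 (SE 0.038), with an adjusted p of 0.0459 in limma. This call was marginal: it was lost in 11 of the 12 fits without 1 mouse, where the adjusted p reached 0.107, and kept without filtered-air mouse 4 (adjusted p = 0.0249). Quantile normalization and a variance trend also ended it, at 0.185 and 0.0562. Pgm2 differed by 0.10 (interval 0.024 to 0.18, limma adjusted p = 0.156), with 5 of 6 ozone mice above every filtered-air mouse. In older mouse nomenclature these symbols were exchanged, and the table pairs them with no identifier, so the symbols are used as RefSeq and GENCODE M21 give them. If the table follows the older names, the row called Pgm1 belongs to the other gene, and the coordinates and promoter stretches given for Pgm1 are not those of the gene that rose.

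**Figure D3:**
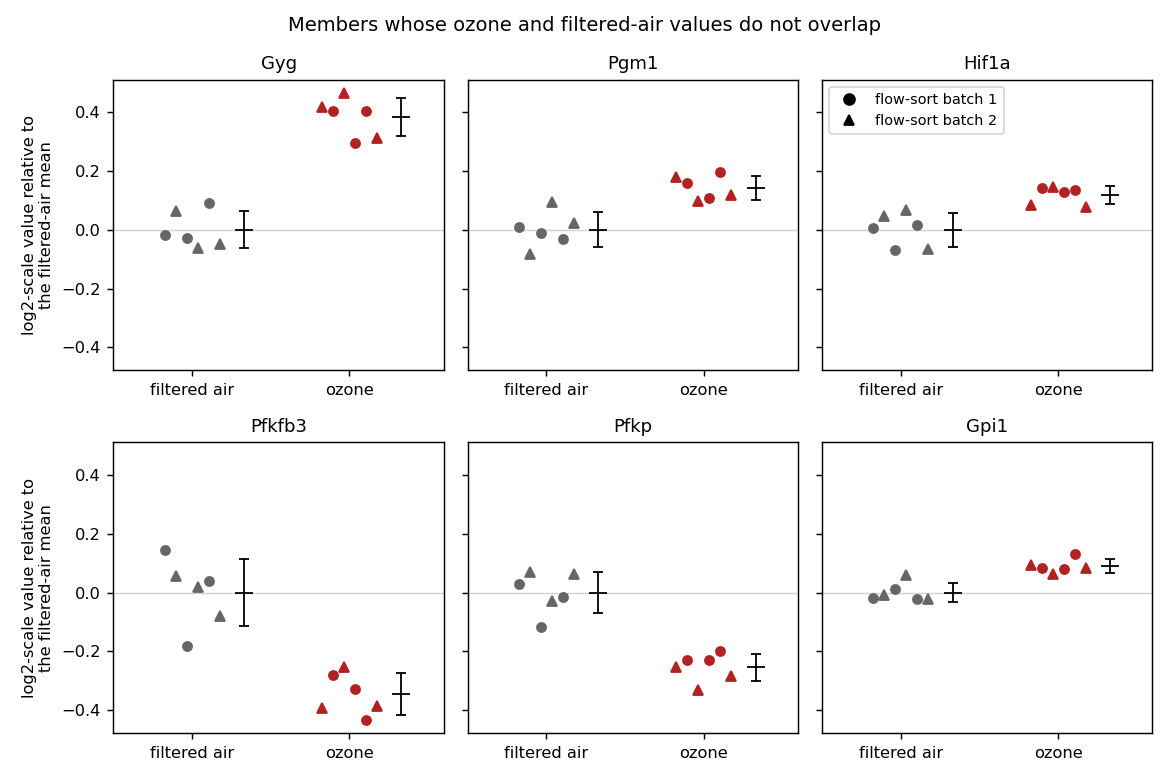
Value of each mouse for the 6 members whose groups did not overlap, in deposited log2-scale units relative to the filtered-air mean; circles and triangles are flow-sort batches 1 and 2, and the bars give the mean ± SD of 6 mice. Gyg, Pgm1, Hif1a and Gpi1 were higher in every ozone mouse and Pfkfb3 and Pfkp lower; Hif1a and Gpi1 missed the threshold on the adjusted p.

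Set side by side, the glycolysis members held 2 calls among 29, both lower, and the glycogen members 2 among 8, both higher. Over all genes tested 1.84% were called lower and 2.41% higher, and 1 of the 2 glycogen calls, Pgm1, is the marginal one. The median difference was 0.039 in the glycolysis members and 0.069 in the glycogen members. These medians moved with single mice: they were 0.056 and 0.058 without filtered-air mouse 4, nearly equal, and 0.012 and 0.072 without ozone mouse 6. The mean of the glycolysis members in a mouse was -0.026 to 0.019 after ozone and -0.056 to 0.10 in filtered air, with filtered-air mouse 4 the highest, and the ozone mice lay inside the filtered-air range. The mean of the glycogen members was 0.036 to 0.15 after ozone and -0.034 to 0.024 in filtered air, and the 2 groups did not overlap. Part of this came from Gyg: with Gyg left out the ozone values were -0.0038 to 0.11 against -0.051 to 0.031, and 4 of 6 ozone mice were above the filtered-air range. Glycogen minus glycolysis overlapped between the groups, at 0.023 to 0.14 against -0.12 to 0.052, with 4 of 6 ozone mice above. These means describe the members and carry no test.

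**Figure D4:**
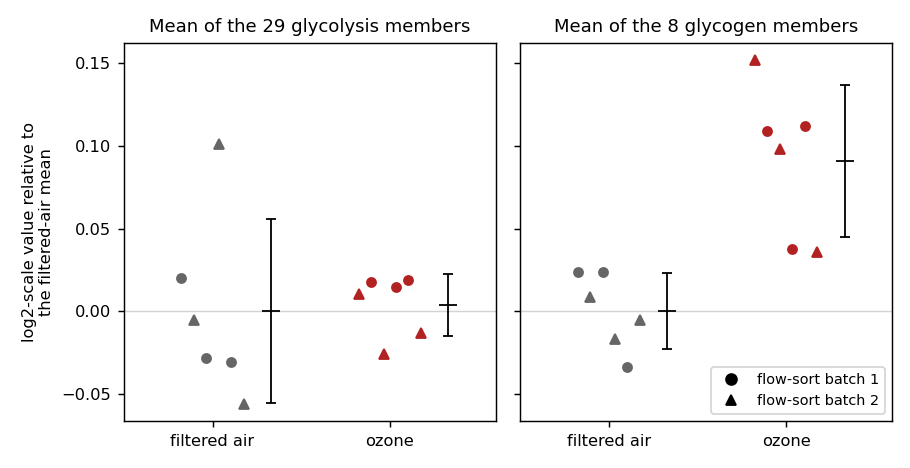
Mean of the 29 glycolysis members (left) and of the 8 glycogen members (right) in each mouse, in deposited log2-scale units relative to the filtered-air mean; circles and triangles are flow-sort batches 1 and 2, and the bars give the mean ± SD of 6 mice. The groups overlap for glycolysis, and every ozone mouse, at 0.036 or more, lies above every filtered-air mouse for glycogen.

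Other genes of these pathways, taken as 7 lists, were called about as often as genes in general. The 3 called genes were about 3% of those tested, against 4.25% over all genes. The tested genes of the lists had a median difference of 0.0028, with 50 positive and the rest negative. Among 22 other glycogen genes 1 was called. Gaa, the lysosomal acid alpha-glucosidase, had values from 0.14 to 0.30 with a median of 0.22 after ozone, and from -0.077 to 0.030 with a median of 0.016 in filtered air. Gaa rose by 0.23 (SE 0.037, limma adjusted p = 0.00351), the groups did not overlap, and the call held without any 1 mouse. Stbd1, a glycogen-binding protein, differed by 0.083 and was not called (limma adjusted p = 0.310). Pgm2l1, which makes glucose 1,6-bisphosphate, differed by 0.17 (limma adjusted p = 0.0687).

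Among 11 further genes of pyruvate dehydrogenase and its carrier 1 was called, and 9 were negative, with a median of -0.047. Over all genes tested 4.25% were called and 48.0% were positive. Pdp2, a phosphatase that reactivates pyruvate dehydrogenase, had values from -0.21 to -0.090 after ozone and from -0.074 to 0.067 in filtered air, without overlap. Pdp2 fell by 0.17 (SE 0.038, limma adjusted p = 0.0223), but leaving out filtered-air mouse 1, filtered-air mouse 5 or ozone mouse 4 ended the call, with adjusted p-values up to 0.0602, as did quantile normalization (0.134). Its paralog Pdp1 differed by -0.16 (limma adjusted p = 0.0923). The 10 genes of the pentose phosphate pathway, the branch that yields NADPH and ribose, were all positive, with a median of 0.061 and 0 called. G6pdx, its first enzyme, differed by 0.12 (limma adjusted p = 0.0794) and Rpe by 0.12 (limma adjusted p = 0.113). Of the other tested genes of glycolysis and gluconeogenesis 0 were called. The lowest limma adjusted p was 0.0674, for Slc37a4, the glucose 6-phosphate carrier of the endoplasmic reticulum, at -0.13. Of 5 users of UDP-glucose 0 were called.

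**Figure D5:**
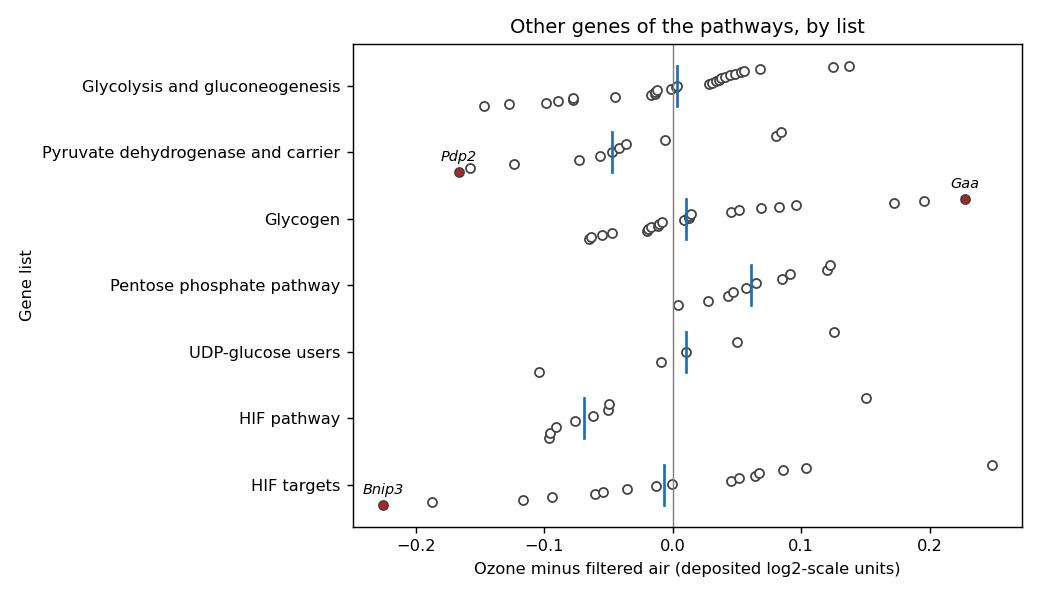
Ozone minus filtered air (limma difference, deposited log2-scale units, 6 mice per group) for the tested genes of the 7 other lists, 1 point per gene. The blue bar is the median of each list. Filled points have an adjusted p under 0.05: Gaa at 0.23, Bnip3 at -0.23 and Pdp2 at -0.17.

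Markers of other cells and states were measured beside these genes. Of 12 proliferation genes 11 rose, and the mean of the 12 was 0.36 to 0.59 after ozone against -0.22 to 0.22 in filtered air, higher in every ozone mouse. Of 11 markers of monocyte-derived macrophages 2, Spp1 and Trem2, rose, by 0.71 and 0.60, and the list's mean overlapped between the groups, at 0.050 to 0.30 against -0.19 to 0.31; Ccr2 and Ly6c2 differed by 0.11 and -0.15 and were not called. In the remaining 11 lists of other cells 0 genes were called, and the neutrophil markers Camp, Ly6g and Ngp did not pass the filter on low values. The part of these genes in the differences of Gyg, Pgm1, Pfkfb3 and Pfkp was not tested. Genes that overlap the called members were not called: Gm10851 and Gm37975, which overlap Pfkfb3, differed by -0.035 and -0.022, Pitrm1, which overlaps Pfkp, by 0.016, and Itgb3bp, which overlaps Pgm1, by 0.085. Whether reads were counted by strand is not given in the sources used here.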

How the data were processed

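RNA of sorted alveolar macrophages was measured in 6 ozone and 6 filtered-air mice. Per the submitters' processing notes, the tools were cutadapt, STAR 2.7.7a, Salmon 1.5.2, DESeq2 1.26.0, limma 3.42.2 and R 3.6.0, and the build was mm10; the annotation is not given in the sources used here. The deposited values are on a log2 scale, variance-stabilized and batch-corrected by the authors per the file's name, and centred on the filtered-air mean, as the values show. All 12 columns matched 1 sample title each.

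Genes with at least 6 of 12 mice above the lowest value that mice of a batch share (tolerance 1e-06) were kept, 19633 of 25444 that were not constant. The two-sided test of exposure used limma 3.58.1 (R 4.3.3); the model held exposure and the flow-sort batch, and p-values had Benjamini-Hochberg adjustment over all genes kept, and the pipeline was checked on simulated data. Members, lists and tests were chosen with earlier results of these data known. Named with full values were members under an adjusted p of 0.05, the member with the smallest p in each role, and called genes of the other lists. Relative depth came from the step of 1 read above the shared minimum. Alternatives covered the filter, covariates, variance model, normalization, pairing, batches and single mice.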

Additional observations from a re-analysis of the deposited data

Results flagged for a closer look

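In 84 combinations of gene or mean and group, 4 had a mouse far from the other 5 of its group by Dixon's ratio at its 95% limit, and chance alone gives about 4.2. Ozone mouse 5 was the highest of its group in Hk2, at 0.10, with the next at -0.016. Ozone mouse 6 was the lowest in Pdk3, at -0.24, with the next at -0.066. The same mouse was the lowest in Bnip3, at -0.41, with the next at -0.25; without it Bnip3 fell by 0.18 and kept its call. Filtered-air mouse 3 was the lowest in Gaa, at -0.077, with the next at -0.0081; without it Gaa rose by 0.21 and kept its call.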

How the results depend on the processing

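Of 368 results for the 16 named genes under the alternatives, 333 kept their direction and call, 33 lost the call in the same direction, 2 gained one (Hif1a without the batch covariate, adjusted p 0.0486, and Aldoc without filtered-air mouse 4) and 0 reversed. The 4 called members stayed called without the filter, with the stricter filter, after median centring, with the robust fit and with RNA integrity as a covariate; Pgm1 lost its call with the variance trend (adjusted p 0.0562) and after quantile normalization (0.185). The total of 834 genes moved to 171 after quantile normalization, to 90 in batch 1 alone and to 0 in batch 2 alone, and to 538 to 751 without single mice, the lowest without filtered-air mouse 1. Members called were 1 in batch 1 alone (Gyg) and 0 in batch 2 alone, where fewer mice enter the fit, and 3 to 5 without single mice. Other pathway genes called were 6 without the batch covariate, 1 after quantile normalization, 0 in batch 1 alone and 0 in batch 2 alone, and 2 to 5 without single mice, the highest without ozone mouse 1. The median of the glycogen members was 0.042 in batch 1 alone and 0.056 to 0.075 without single mice, and that of the glycolysis members 0.012 to 0.056. The cause was not tested in the cases with all 12 mice. No setting of the exposure-by-batch term (unfiltered, median-centred or as reported) called a gene, a count of 0, while 510 to 744 had an unadjusted p below 0.05 in limma.

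Same-numbered mice are different animals, and they were not treated as paired because pairing was to be accepted only with a correlation of deviations over 0.1 in all 6 pairs. It exceeded 0.1 in 4 of 6 pairs, and 6 of 12 mice correlated best with their own number; whether some pairs share a factor was not tested. Adding the replicate block gave 853 called genes (686 shared with the 834 above), 3 called members (Pgm1 lost its call, adjusted p 0.105) and 2 other pathway genes (Pdp2 lost its call, 0.0597). Read depth is not known in absolute terms, so small differences of weakly expressed members may not have been detectable.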
